A study of Mus musculus with 9 samples.

Results

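The expression of 9 genes that define T helper cell responses was examined in irradiated and control mouse lung: Ifng, Il12a, Il12rb1 and Tbx21 of the T helper 1 (Th1) programme, Il4, Il13 and Gata3 of the T helper 2 (Th2) programme, Il17a of the T helper 17 (Th17) programme, and Il10, an anti-inflammatory cytokine. The genes were chosen by name, and all 9 were found among the 19698 genes measured. RNA from lung tissue of 10-week-old male C57BL/6 mice was hybridized to 9 one-color Agilent arrays, 4 labeled as controls that were not irradiated (control arrays 1 to 4) and 5 labeled as irradiated left lung (irradiated arrays 1 to 5). No label states the dose, the region or the time behind an irradiated array, so the spread among the 5 irradiated arrays includes whatever they differ in. Per the study's methods, the RNA of repeated experiments was pooled before labeling, and irradiation was given under zoletil and rompun anesthesia. Nothing in the labels shows that arrays of a group came from separate sets of animals, and p-values measure only the spread between these arrays. Values are log2 intensities after quantile normalization across the arrays, each gene was read at its brightest probe, and differences are irradiated minus control.

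CD4 T helper cells secrete different cytokines according to the signals that they received during activation. Interleukin 12, made mostly by dendritic cells and macrophages, acts through its receptor on T cells and natural killer cells to switch on the transcription factor T-bet (Tbx21) and interferon gamma, which activates macrophages. GATA3 drives the Th2 cytokines interleukins 4 and 13, which group 2 innate lymphoid cells, mast cells and basophils can also make, interleukin 17A recruits neutrophils through epithelial chemokines, and interleukin 10 restrains the others. In irradiated lung, the balance between interferon gamma and the Th2 cytokines is studied because interleukin 13 drives collagen deposition and interferon gamma opposes it.

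None of the 9 genes passed the threshold, an adjusted p under 0.05 in limma with Benjamini-Hochberg adjustment over all 39303 probes, while 0.333% of all probes did so (0.191% higher and 0.142% lower). The mean was higher in the irradiated arrays for 7 genes and lower for Il12a and Gata3, and it was higher for 51.9% of all genes. The largest difference was that of Il13, which was 1.48 ± 0.51 (SE) higher on the log2 scale with an adjusted p of 0.323 in limma. It was also the gene that did not reach a signal well above background on any control array, and its difference was not the largest when dim values were set to a floor, with normexp background correction or in the authors' normalized values. The values of the control and irradiated arrays overlapped for all 9 genes, whereas they did not overlap for 5.15% of all genes. At an unadjusted p under 0.05, 1 of the 9 genes (Il13) passed, against 9.94% of all probes. The median difference of the 9 genes was 0.28, compared with 0.0085 over all 19698 genes. It was 0.15 for the 5 of them that were well above background on all 9 arrays. Ifng, Il12rb1, Tbx21, Il4 and Gata3 were well above background on all 9 arrays, and the other 4 genes were not.

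**Figure D1:**
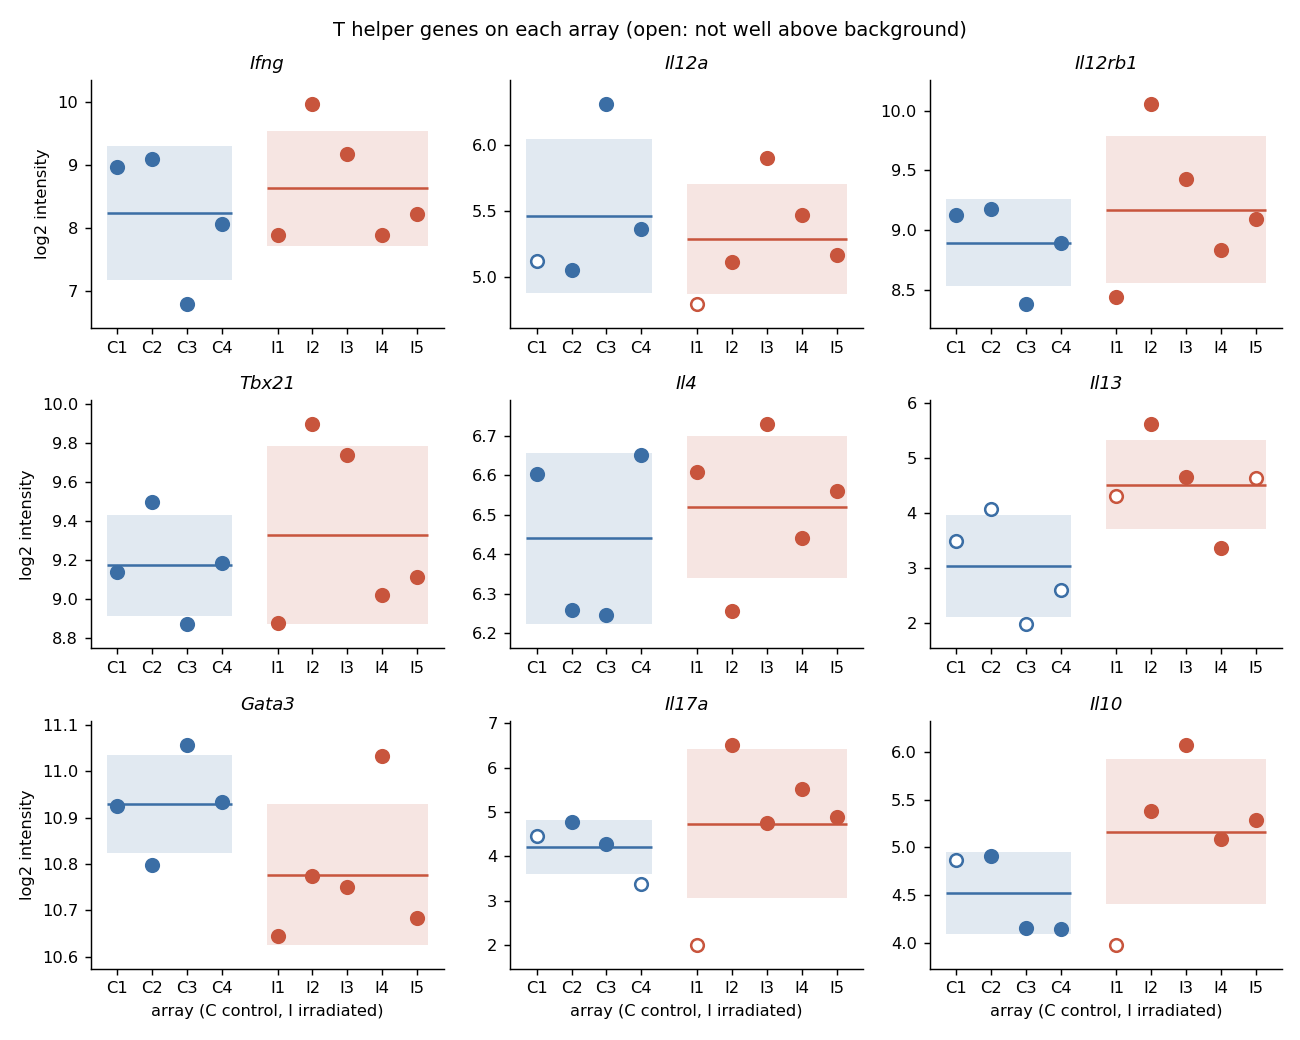
Log2 intensity of each of the 9 T helper genes on the 4 control (C1 to C4) and 5 irradiated (I1 to I5) arrays, with the group mean as a line and ± 1 SD as a band; open points are not well above background and each panel has its own axis. The groups overlap in every panel, and the 4 control points of Il13 are all open.

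Some arrays stood apart before any T helper gene was considered. Lung genes (Sftpc, Scgb1a1, Ager and 6 others) were well above background on all 9 arrays. Control array 3 had a mean log2 value of skeletal muscle genes 5.26 above the control mean, compared with -1.93 to -1.64 on the other control arrays. Irradiated array 1 had a mean of cardiac muscle genes of -6.17 and a mean of T cell genes of -0.46 relative to the control mean, both the lowest of the 9 arrays. The share of spots well above background ranged from 72.8% to 89.1% and was highest on control array 3 and irradiated array 4. The lowest log2 value well above background was 2.69 and 2.55 on those 2 arrays, compared with 3.94 to 5.17 on the others. There were 4 pairs of arrays that shared their position and tilt on the scanner image and their background level: control 1 with irradiated 2, control 2 with irradiated 3, control 3 with irradiated 4, and control 4 with irradiated 5. Irradiated array 1 had no such partner. What a pair shared in the experiment is not given in the sources used here, and the comparisons were also fitted with this scan pair as a block.

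The promoters of 4 genes are shown, Ifng and Tbx21 because their values varied together across the arrays and Il13 and Il4 because they are neighbors in the genome. The sequences are those of RefSeq on the build GRCm38.p6, from 250 bases before the first transcribed base to 50 from it on, written 5′ to 3′ on the strand of the gene. The table held an entry for 7 of the 9 genes, and Il12rb1 and Il10 had none. Capitals mark matches to a STAT motif (TTCNNNGAA, both strands), a GATA motif (GATAA, both strands), a T-box half-site (TCACAC, both strands) or a TATA box (TATAAA, strand of the gene), and no marked match overlapped another.
Ifng, chr10:118440796-118441095, plus strand: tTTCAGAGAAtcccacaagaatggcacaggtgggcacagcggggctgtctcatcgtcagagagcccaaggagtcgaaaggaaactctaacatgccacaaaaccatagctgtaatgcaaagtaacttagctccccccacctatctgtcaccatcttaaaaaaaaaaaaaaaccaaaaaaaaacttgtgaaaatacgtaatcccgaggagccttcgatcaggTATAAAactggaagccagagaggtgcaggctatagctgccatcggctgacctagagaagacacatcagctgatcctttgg
Tbx21, chr11:97115282-97115581, minus strand: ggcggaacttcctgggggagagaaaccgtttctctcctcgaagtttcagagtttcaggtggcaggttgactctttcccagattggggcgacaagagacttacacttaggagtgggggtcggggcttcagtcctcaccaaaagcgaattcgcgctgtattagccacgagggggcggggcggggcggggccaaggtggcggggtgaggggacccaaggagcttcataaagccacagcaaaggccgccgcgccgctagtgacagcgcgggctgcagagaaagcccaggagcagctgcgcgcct
Il13, chr11:53634653-53634952, minus strand: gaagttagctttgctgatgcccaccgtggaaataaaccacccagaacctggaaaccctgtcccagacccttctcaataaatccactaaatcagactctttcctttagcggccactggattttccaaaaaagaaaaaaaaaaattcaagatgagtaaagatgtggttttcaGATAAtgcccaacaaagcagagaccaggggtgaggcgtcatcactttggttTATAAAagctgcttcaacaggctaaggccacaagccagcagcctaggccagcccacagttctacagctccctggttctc
Il4, chr11:53618616-53618915, minus strand: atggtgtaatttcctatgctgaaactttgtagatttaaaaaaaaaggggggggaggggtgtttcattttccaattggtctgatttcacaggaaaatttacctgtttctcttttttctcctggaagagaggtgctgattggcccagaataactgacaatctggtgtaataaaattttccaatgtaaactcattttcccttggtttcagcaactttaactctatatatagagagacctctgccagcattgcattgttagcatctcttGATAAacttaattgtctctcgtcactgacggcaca

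Of 32851 promoters of the same length in the table, 8.30% held the STAT motif, 25.4% the GATA motif, 14.5% the T-box half-site and 8.32% the TATA box. In the Ifng promoter, the STAT motif lay at position -249 and the TATA box at -30, counted from the first transcribed base as 0. In the Il13 promoter, the GATA motif lay at -80 and the TATA box at -29. The Il4 promoter shown held a GATA motif at 15, whereas a second Il4 promoter in the table, not shown, held a STAT motif at -4 and no GATA motif, and the Tbx21 promoter held none of these letters. The promoters were 46% G or C for Ifng and Il13, 38% for Il4 and 62% for Tbx21, compared with a median of 52.7% over all promoters. These matches are descriptions of the sequence and do not show that a factor was bound.

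Interferon gamma, the main cytokine of Th1 and natural killer cells, varied more within the groups than between them. Ifng had log2 intensities of 8.97, 9.11, 6.80 and 8.07 on control arrays 1 to 4. On irradiated arrays 1 to 5 they were 7.90, 9.98, 9.18, 7.89 and 8.22. The lowest value was that of control array 3 and the highest that of irradiated array 2, and 3 of the 5 irradiated values lay below the control mean. Ifng was 0.40 ± 0.56 (SE) higher in the irradiated arrays (8.63 ± 0.92, SD, n = 5) than in the controls (8.24 ± 1.06, SD, n = 4), with an adjusted p of 0.903 in limma. As a fold change this was 1.32, with a 95% confidence interval from 0.552 to 3.13. The direction rested on control array 3, without which the difference was -0.083.

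Tbx21 encodes T-bet, the transcription factor that commits cells to the Th1 programme. Its values were 9.14, 9.50, 8.87 and 9.18 on control arrays 1 to 4, and 8.88, 9.90, 9.74, 9.02 and 9.11 on irradiated arrays 1 to 5. Irradiated arrays 2 and 3 lay above all controls and the other 3 irradiated arrays lay within the range of the controls. The difference was 0.15 ± 0.23 (SE), with an adjusted p of 0.911 in limma and a 95% interval of the fold from 0.775 to 1.60. Without irradiated array 2 the difference was 0.013.

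Il12rb1 encodes the receptor chain that the interleukin 12 and interleukin 23 receptors share. Its brightest probe gave 9.13, 9.18, 8.38 and 8.89 on control arrays 1 to 4, and 8.44, 10.06, 9.43, 8.84 and 9.09 on irradiated arrays 1 to 5. Irradiated arrays 2 and 3 were again above all controls, and control array 3 and irradiated array 1 were the lowest. The difference was 0.28 ± 0.31 (SE), with an adjusted p of 0.862 in limma and a 95% interval of the fold from 0.753 to 1.95. It was 0.055 without irradiated array 2, 0.11 without control array 3 and 0.46 without irradiated array 1. The other probe of Il12rb1 gave a difference in the opposite direction, -0.30 ± 0.21 (SE), with an adjusted p of 0.720 in limma. On that probe the control arrays ranged from 6.82 to 7.27 and the irradiated arrays from 6.37 to 7.15. The direction for Il12rb1 is therefore not settled by these arrays.

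Il12a encodes the p35 subunit, which belongs to interleukin 12 and interleukin 35. It was dim, with 5.12, 5.05, 6.31 and 5.36 on control arrays 1 to 4, and 4.79, 5.11, 5.90, 5.47 and 5.17 on irradiated arrays 1 to 5. Control array 3 was the highest and irradiated array 1 the lowest, and neither control array 1 nor irradiated array 1 was well above background. The difference was -0.17 ± 0.32 (SE), with an adjusted p of 0.934 in limma and a 95% interval of the fold from 0.542 to 1.45. Without control array 3 the difference was 0.11, and with dim values set to the lowest signal well above background of their array it was -0.098. Il12b, which encodes the other subunit of interleukin 12, was not found through the gene table.

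Ifng, Il12rb1 and Tbx21 ordered the 9 arrays nearly alike. Across the 9 arrays, Ifng and Il12rb1 had a Pearson r of 0.925 and a Spearman rho of 0.983. Ifng and Tbx21 had an r of 0.886 and a rho of 0.933, and Il12rb1 and Tbx21 an r of 0.927 and a rho of 0.950. After the 2 arrays farthest from the median of the first gene of each pair were left out (control 3 and irradiated 2), the r values were 0.833, 0.830 and 0.861. These correlations were 3 of 36 among the 9 genes and are given as descriptions of 9 arrays that share groups and scan pairs. Patterns were also compared with those of 15234 genes, each well above background on all arrays. The genes most like Ifng were Gng2, a G protein subunit (r = 0.987), Themis, a thymocyte signaling gene (r = 0.973), and Cd3g, a chain of the T cell receptor complex (r = 0.961). For Il12rb1 they were Slamf8, Gpr84 and Cd6 (r from 0.968 to 0.974), and for Tbx21 they were Samd3, Zap70 and Ppif (r from 0.938 to 0.963), where Cd6 and Zap70 encode a surface receptor and a kinase of T cells.

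**Figure D2:**
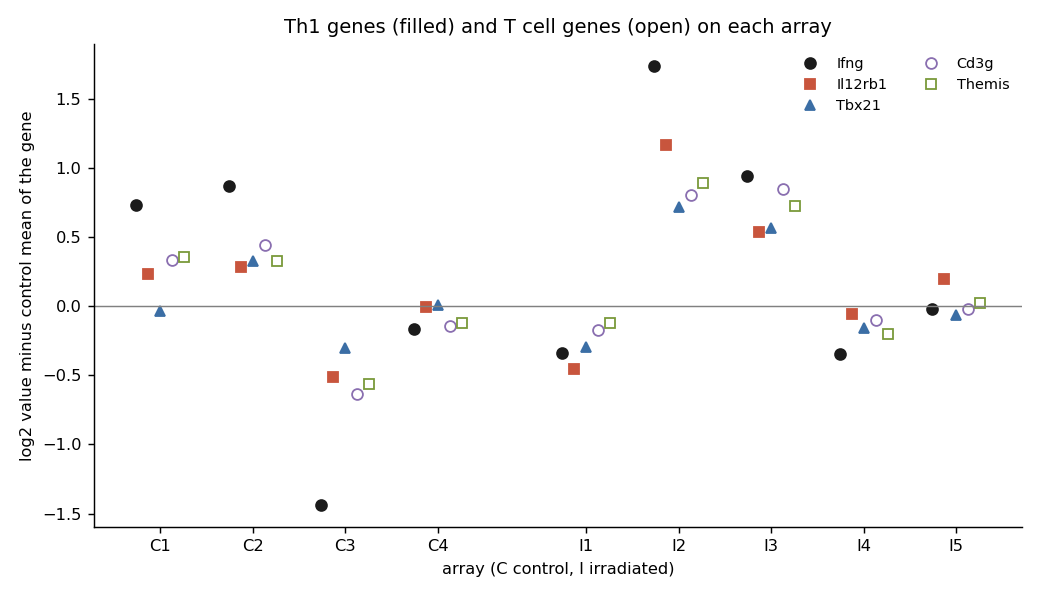
Log2 value of Ifng, Il12rb1 and Tbx21 (filled) and of Cd3g and Themis (open) on each control (C) and irradiated (I) array. Each value is given minus the mean of that gene on the 4 control arrays. Cd3g is from the T cell list and Themis from the thymus list. Both were among the genes most correlated with Ifng on these same arrays, so their likeness to Ifng follows from that choice. All 5 genes are above 0 on irradiated arrays 2 and 3 and below 0 on control array 3 and irradiated arrays 1 and 4.

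T cell genes were read beside these 3 genes. All 14 T cell genes, Cd3e, Cd4 and Cd8a among them, were well above background on every array. Of these, 9 had a higher and 5 a lower mean in the irradiated arrays, with a median difference of 0.05 and none past the threshold. With the scan pair as a block 1 of them passed, compared with 3.84% of all genes. It was the signaling adaptor Lat (0.60, adjusted p of 0.0402 in limma), named after its values were seen. With the pair as a random block, which called 9.45% of all genes, none of the 14 passed (adjusted p of 0.137 for Lat in limma). The summed intensity of the T cell genes ranged from 42291 to 54085 in the control arrays and from 33855 to 60444 in the irradiated arrays. The mean log2 value of the list relative to the controls was 0.52 on irradiated array 2 and 0.47 on irradiated array 3, the 2 arrays with the highest Tbx21. For natural killer cells, which also make interferon gamma, 7 of 9 genes had a lower mean in the irradiated arrays, with a median difference of -0.12 and sums of 25017 to 35364 in the controls and 18199 to 40214 in the irradiated arrays. Of 7 thymus genes, 4 had a higher and 3 a lower mean, and Rag2 was not well above background on any array. With the block, no natural killer cell gene passed and 1 thymus gene, Cd1d1, named after its values were seen, was called lower (-0.31), which it was not with the random block (adjusted p of 0.0749 in limma). In bulk tissue, fewer cells of a type and less RNA per cell cannot be told apart, and the part of T cell or natural killer cell numbers in the Th1 values was not tested.

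Interleukin 13, the Th2 cytokine that acts on epithelium, smooth muscle and fibroblasts, was the only gene not well above background on any control array. Il13 had log2 values of 3.48, 4.07, 1.97 and 2.60 on control arrays 1 to 4, and of 4.29, 5.61, 4.66, 3.36 and 4.63 on irradiated arrays 1 to 5. All 5 irradiated values were above the control mean and 4 were above every control, while irradiated array 4 lay below control arrays 1 and 2. Il13 was well above background on irradiated arrays 2, 3 and 4 and on no control array, so these ranks do not order its expression. Its processed signal before normalization was 2.50 to 17.5 intensity units on the control arrays, compared with 11.9 to 41.9 on the irradiated arrays. The measured means were 3.03 ± 0.93 (SD, n = 4) and 4.51 ± 0.81 (SD, n = 5), and the difference of 1.48 had an unadjusted p of 0.0159 and an adjusted p of 0.323 in limma. With each control array set to its lowest signal well above background, the irradiated mean, which includes 2 arrays that were themselves not well above background, was 1.41-fold higher. The size of the Il13 difference is therefore not fixed by these arrays.

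The size of the Il13 difference depended on how values near background were treated. With values under the lowest signal well above background set to it on each array, the difference was 0.67, with an adjusted p of 0.927 in limma. With normexp background correction and an offset of 50 it was 0.29, and with the authors' normalized values 0.33. With the floor, Il17a (0.84) and Il10 (0.82) differed more than Il13, with normexp Ifng (0.37) did, and in the authors' values Il17a (0.54), Il10 (0.37) and Ifng (0.36) did. With each array left out in turn and no floor, the Il13 difference ranged from 1.12 (without control array 3) to 1.82 (without control array 2). Each of these values was taken against control signals not well above background, so the range does not show that the difference is stable.

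Interleukin 4, the cytokine that starts and maintains the Th2 programme, had the difference nearest to 0 in the quantile normalized comparison without a block. With the scan pair as a block, that of Il12a (-0.050) was nearer. Il4 was printed as 10 spots on each array, and all of its spots were well above background. Its values were 6.60, 6.26, 6.25 and 6.65 on control arrays 1 to 4, and 6.61, 6.26, 6.73, 6.44 and 6.56 on irradiated arrays 1 to 5. The whole range over the 9 arrays was 0.48, and the groups overlapped almost completely. The difference was 0.08 ± 0.18 (SE), with an adjusted p of 0.957 in limma and a 95% interval of the fold from 0.801 to 1.39. With each array scaled to its 75th percentile instead, it was -0.13, farther from 0 than that of Tbx21 (0.075). With each array left out in turn, the Il4 difference ranged from 0.014 to 0.15. Across the 9 arrays, Il4 and its neighbor Il13 had a Pearson r of 0.044 and a Spearman rho of 0.17. Without irradiated array 2 and control array 3 the r was 0.030. Il13 was well above background on only 3 of the 9 arrays, so these values do not show whether the neighbors varied together. The genes most like Il4 in pattern were Dram2, Vit and Serpinb1b (r from 0.873 to 0.913 over 9 arrays).

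GATA3, the transcription factor of Th2 cells and group 2 innate lymphoid cells, is also expressed in other tissues. Gata3 had values of 10.93, 10.80, 11.06 and 10.93 on control arrays 1 to 4, and 10.64, 10.77, 10.75, 11.03 and 10.68 on irradiated arrays 1 to 5. All irradiated arrays except irradiated array 4 lay below all controls. The difference was -0.15 ± 0.10 (SE), with an adjusted p of 0.723 in limma and a 95% interval of the fold from 0.766 to 1.06. Its value was lower in the irradiated array of all 4 scan pairs, by 0.026 to 0.25, whereas 17.3% of all genes were lower in all 4. The genes most like Gata3 in pattern were Sctr, Cacna1g and Speer8-ps1 (r from 0.923 to 0.937 over 9 arrays). Il13 and Gata3 thus differed in opposite directions, and neither passed the threshold without a block. With the scan pair as a random block, which called 9.45% of all genes, Il13 was called higher (adjusted p of 0.0213 in limma). That call was made against control values that were not well above background.

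Markers of other cells that make or respond to Th2 cytokines were read beside these genes. Of 8 genes of group 2 innate lymphoid cells, all 8 had a higher mean in the irradiated arrays, with a median difference of 0.48 and sums of 4801 to 6355 in the controls and 5527 to 12982 in the irradiated arrays. Areg, named after its values were seen, was the only gene of that list past the threshold. It encodes the epidermal growth factor receptor ligand amphiregulin, which many cells make, and it rose by 2.63 ± 0.24 (SE) with an adjusted p of 0.00668 in limma. Of 10 mast cell and basophil genes, 7 had a lower mean, with a median of -0.37. Of 6 dendritic cell genes all had a higher mean, with a median of 0.50, and 5 of 7 macrophage genes did, with a median of 0.34. With the scan pair as a block, 3 genes of group 2 innate lymphoid cells, 1 dendritic cell gene (Cd209a) and 2 macrophage genes (Adgre1 and Mertk) were called higher and 1 mast cell gene (Kit) lower, named after their values were seen, compared with 3.84% of all genes called in either direction. With the random block, which called 9.45% of all genes, the counts were 3, 2 and 4 higher and 2 lower. Of 7 B cell genes all had a lower mean, with a median of -0.38. None of them passed with the scan pair as a block, and 2 were called lower with the random block. The part of these cells in the values of Il13, Gata3 and Il10 was not tested.

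Interleukin 17A, the cytokine of Th17 cells and of gamma delta T cells, was dim and uneven among the irradiated arrays. Il17a had values of 4.45, 4.78, 4.27 and 3.36 on control arrays 1 to 4, and of 2.00, 6.52, 4.74, 5.51 and 4.88 on irradiated arrays 1 to 5. Both the lowest and the highest value were on irradiated arrays, array 1 and array 2. It was not well above background on control arrays 1 and 4 or on irradiated array 1. The difference was 0.52 ± 0.76 (SE), with an adjusted p of 0.908 in limma and a 95% interval of the fold from 0.439 to 4.66. It was 1.20 without irradiated array 1 and 0.069 without irradiated array 2. With dim values set to the floor it was 0.84, with an adjusted p of 0.599 in limma, and with normexp 0.21.

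Interleukin 10, made by regulatory T cells, macrophages and others to limit inflammation, had a higher measured value on 4 of the 5 irradiated arrays than on every control. Il10 had values of 4.87, 4.92, 4.16 and 4.14 on control arrays 1 to 4, and of 3.98, 5.38, 6.08, 5.09 and 5.29 on irradiated arrays 1 to 5. Irradiated array 1, the exception, had the lowest value of all 9 arrays, and none of its 10 spots was well above background. Control array 1 was not well above background either, and its lowest signal well above background (5.11) exceeded the Il10 value of irradiated array 4. The rank of irradiated array 4 above control array 1 is therefore not resolved. The difference was 0.64 ± 0.39 (SE), with an adjusted p of 0.672 in limma and a 95% interval of the fold from 0.852 to 2.87. Without irradiated array 1 it was 0.94, with an adjusted p of 0.240 in limma, and without irradiated array 3 it was 0.41, with an adjusted p of 0.865 in limma. With normexp background correction it was 0.24 and in the authors' normalized values 0.37.

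Arrays of one scan pair deviated from their group means together, with correlations across probes of 0.20 to 0.46, and the pair was therefore also fitted as a block. In this fit irradiated array 1, which has no partner, adds nothing to the difference. None of the 9 genes passed the threshold, compared with 2.81% of all probes and 3.84% of all genes. The smallest adjusted p-values in limma were 0.0565 for Il10, with a difference of 0.94 ± 0.17 (SE), and 0.0671 for Il13. The differences were 0.46 for Il12rb1, 0.58 for Ifng, 0.27 for Tbx21 and 1.20 for Il17a, with adjusted p-values of 0.151 to 0.375 in limma. They were 0.06 for Il4, -0.050 for Il12a and -0.12 for Gata3, with adjusted p-values of 0.880, 0.945 and 0.370 in limma. With the pair as a random block, Il13, not well above background on any control array, was called higher with an adjusted p of 0.0213 in limma, the only one of the 9 genes past the threshold, while 7.38% of all probes and 9.45% of all genes passed in that fit.

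Within the scan pairs, Ifng, Il12rb1, Il13 and Il10 were higher on the irradiated array of all 4, which was also so for 17.9% of all genes. The other probe of Il12rb1 was higher in 1 pair (0.26) and lower in 3 (-0.90 to -0.30). The differences of Il10 were 1.17, 0.94 and 1.15 in the 3 pairs whose control array was well above background. Those of Il13 were all above 0, but each was taken against a control value that was not well above background, so that their sizes are not given. Those of Ifng were 1.00, 0.071, 1.09 and 0.15, so that the pairs with irradiated arrays 2 and 4 carried most of the difference. Il17a was well above background on both arrays of 2 pairs, with differences of -0.041 (control array 2 and irradiated array 3) and 1.24 (control array 3 and irradiated array 4). Il4 was higher in 2 pairs and lower in 2, and Il12a was higher in 1 pair and lower in 3.

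**Figure D3:**
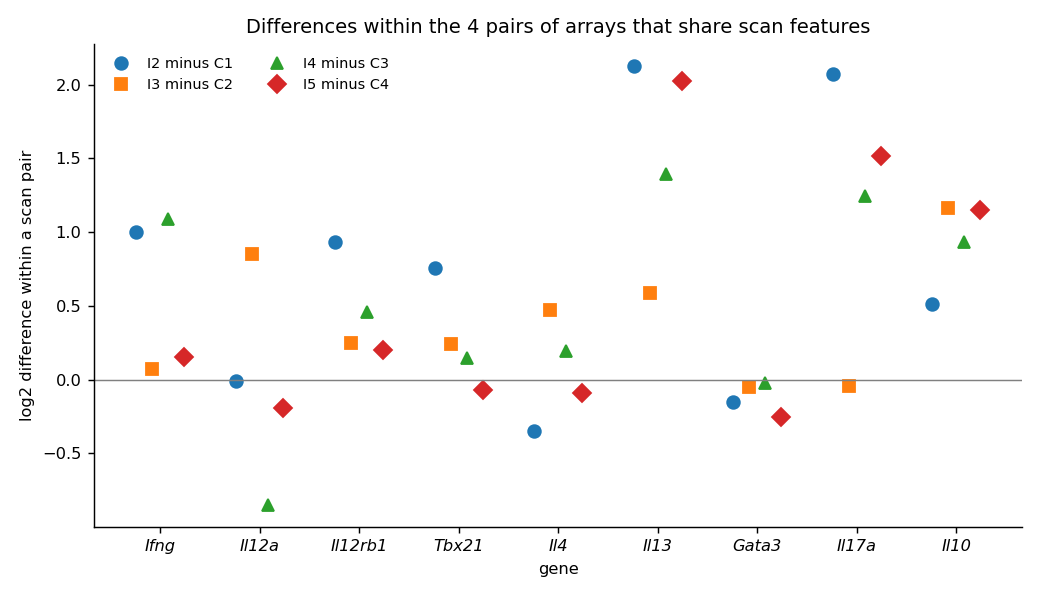
Log2 difference of each T helper gene within each of the 4 pairs of a control (C) and an irradiated (I) array that shared scan features; irradiated array 1 has no partner and is not plotted. The height of a point is not a measured size where the control array was not well above background (Il13 in all 4 pairs, Il17a with C1 and C4, Il12a and Il10 with C1). All 4 points of Ifng, Il12rb1, Il13 and Il10 are above 0 and all 4 of Gata3 are below 0.

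**Figure D4:**
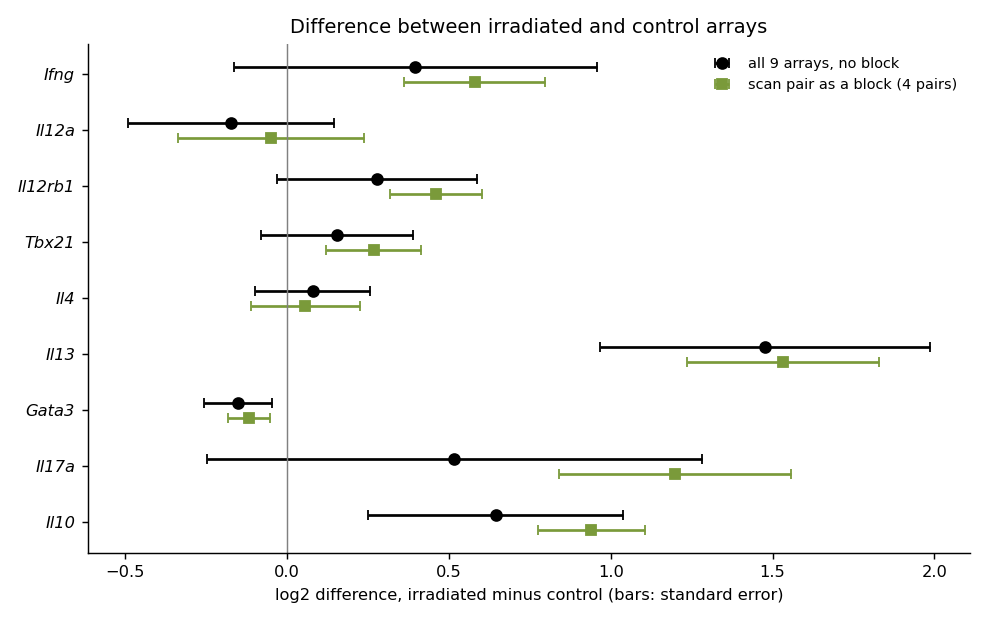
Log2 difference, irradiated minus control, of each T helper gene in the fit of all 9 arrays without a block (circles) and with the scan pair as a block (squares); bars are ± 1 standard error. Il13, not well above background on any control array, has the largest difference in these 2 fits, and the standard error of every gene is smaller with the block.

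The other genes of these pathways were counted in 7 lists. Of 110 different genes measured, none passed the threshold, compared with 0.416% of all genes. Of the same genes, 16 (14.5%) had an unadjusted p under 0.05 compared with 9.94% of all probes, and 13 (11.8%) passed with the scan pair as a block, all of them higher in the irradiated arrays, compared with 3.84% of all genes. With the pair as a random block, 14 (12.7%) passed, compared with 9.45% of all genes, and 7 genes passed in both fits. Of 18 Th1 pathway genes, 15 had a higher and 3 a lower mean, and the median difference was 0.06. Among genes well above background on all 9 arrays, here and in the lists that follow, the largest differences were those of the transcription factor Runx3 (0.43 ± 0.25, SE), the interferon gamma receptor chain Ifngr2 (0.27 ± 0.13) and the interleukin 12 receptor chain Il12rb2 (-0.26 ± 0.44). Of 14 genes that interferon gamma induces, all 14 had a higher mean, with a median of 0.27, and 4 passed with the block. The chemokine Cxcl10 (1.04 ± 0.82, SE), the nitric oxide synthase Nos2 (0.57 ± 0.25) and the class II antigen presentation gene H2-Aa (0.43 ± 0.19) had the largest differences, and of these 3 H2-Aa passed with the block (0.56, adjusted p of 0.0493 in limma). The other 3 that passed with the block, named after their values were seen, were H2-Ab1 (0.44), H2-Eb1 (0.57) and Cd74 (0.47), which also belong to class II antigen presentation. With the random block H2-Aa and Nos2 passed (adjusted p of 0.0367 and 0.0418 in limma) and these 3 genes did not (adjusted p of 0.0673 to 0.132 in limma).

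Of 18 Th2 pathway genes, 12 had a higher and 6 a lower mean, with a median of 0.24. Il33, the epithelial alarmin that activates group 2 lymphoid cells, was 0.66 ± 0.21 (SE) higher with an adjusted p of 0.292 in limma. It passed with the scan pair as a block (0.81, adjusted p of 0.0255 in limma). On irradiated array 1 Il33 was 13.16, within its control range of 12.82 to 13.29. Its receptor Il1rl1 differed by 0.55 ± 0.31 (SE) and the interleukin 25 receptor Il17rb by 0.53 ± 0.23, and Il17rb passed with the random block (adjusted p of 0.0353 in limma). The genes that interleukins 4 and 13 induce had the highest median of the 7 lists, 0.60, with 12 of 15 higher. Retnla, a secreted product of alternatively activated macrophages, differed by 1.32 ± 0.54 (SE), the chitinase-like gene Chil4 by 0.98 ± 0.56 and the chemokine Ccl17 by 0.95 ± 0.61, with adjusted p-values of 0.432 to 0.697 in limma.

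Of 20 Th17 pathway genes, 15 had a higher mean, with a median of 0.11. Il6, a cytokine that promotes Th17 differentiation and is made by many cells, differed most, by 2.53 ± 0.66 (SE) with an adjusted p of 0.178 in limma, and passed with the block (3.16, adjusted p of 0.0273 in limma). With the block 1 other gene of the list passed, the transcription factor Batf (0.46), named after its values were seen, which did not pass with the random block (adjusted p of 0.0851 in limma). The receptor Il6ra differed by -0.35 ± 0.10 (SE), and all of its irradiated values (13.97 to 14.31) lay below all of its control values (14.37 to 14.76). Of 13 genes that interleukin 17 induces, 9 were higher and 4 lower, with a median of 0.30. The neutrophil chemokine Cxcl1 differed by 2.77 ± 0.64 (SE) with an adjusted p of 0.127 in limma, and the iron-binding protein gene Lcn2 by 1.74 ± 0.39 with an adjusted p of 0.112 in limma. Both passed with the block, by 3.35 and 1.99. These genes also respond to other stimuli, and nothing here ties them to Il17a.

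Of 13 genes of the regulatory T cell and interleukin 10 pathway, 10 had a higher mean, with a median of 0.34. Socs3, an inhibitor of cytokine signaling that interleukins 6 and 10 induce, differed by 1.29 ± 0.45 (SE) with an adjusted p of 0.327 in limma. Ctla4, an inhibitory receptor of T cells, differed by 0.71 ± 0.58 (SE), and Bcl3, a regulator of NF-kappa B, by 0.68 ± 0.27. On irradiated array 1, Socs3 (12.76) lay within its control range of 12.52 to 13.29 and Bcl3 (12.67) lay below all of its control values. On the other irradiated arrays both were above all controls. With the scan pair as a block, 3 genes of the list passed, Ctla4 (0.89, adjusted p of 0.0444 in limma), Bcl3 (0.94, adjusted p of 0.0252 in limma) and, named after its values were seen, the interleukin 2 receptor chain Il2ra (0.60). With the random block Bcl3 and Socs3 passed (adjusted p of 0.0211 and 0.0266 in limma), and Ctla4 and Il2ra did not (adjusted p of 0.156 and 0.0541 in limma).

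**Figure D5:**
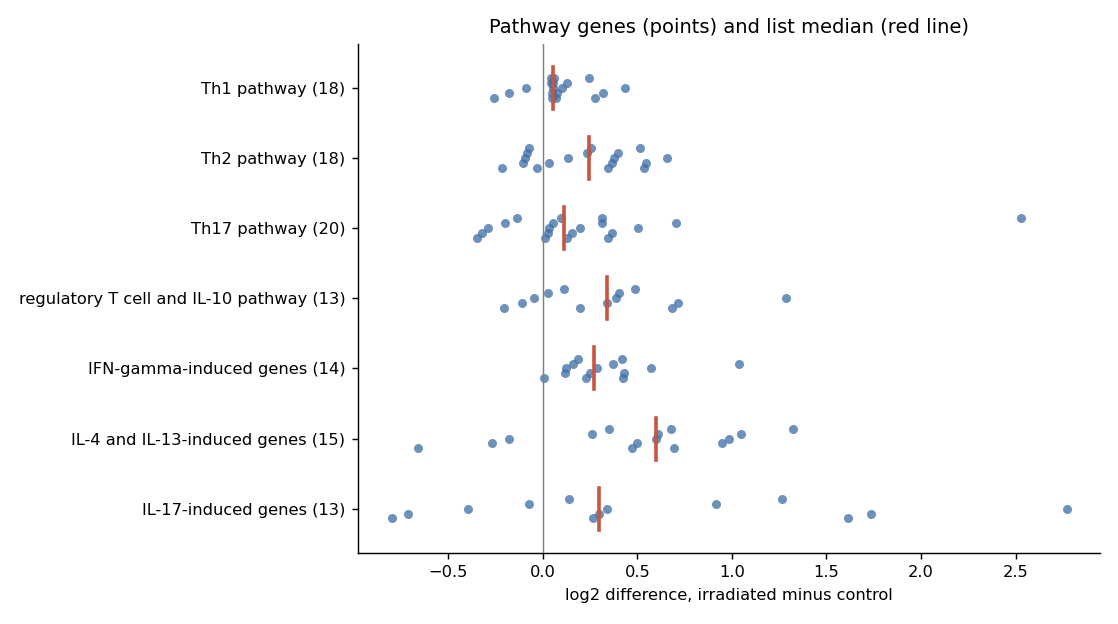
Log2 difference, irradiated minus control, of every measured gene (points) of 7 T helper pathway lists, with the number of genes in brackets and the list median as a red line. All 14 points of the interferon gamma list are above 0, and the highest point of the Th17 list (2.53) is Il6.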

How the data were processed

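Lung RNA was hybridized to 9 one-color Agilent whole mouse genome arrays (4 control, 5 irradiated). Per the file headers, the authors deposited Feature Extraction intensity values without normalization between arrays, with 0 or 1 marks for spots that were saturated, outlying or well above background, and separately a table of intensity values that they had quantile normalized. Its scale is not stated, and its median was 2054 to 2056 on every array.

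The analysis started from the processed signal, without control spots or spots marked as outlying. A probe was kept where its signal exceeded 1.4 times local background on 4 or more arrays (39303 of 39429), following the factor in the study's methods. Log2 values were quantile normalized and the spots of a probe averaged. A probe was called well above background on an array where at least 50% of its spots were so marked. Accessions were matched to symbols in a RefSeq table (GRCm38.p6, used for names and promoters), which named 26055 probes (66.1%), and each of 19698 genes was read at its brightest probe. No spot was saturated, and the number of arrays limits the precision.

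Groups were compared with limma (version 3.58.1, R 4.3.3) with an intensity trend, all 9 arrays, no covariates and Benjamini-Hochberg adjustment over all probes. The methods give no test of irradiated against control arrays. The procedure was tested on simulated data. The 9 genes, the pathway and marker lists and the alternatives were chosen with earlier results of these data known. The text names the 9 genes, up to 3 genes per pathway list by absolute difference among those well above background on all arrays, the 3 genes most correlated with each of the 5 well detected members, and genes named after their values were seen, which are marked so. Scan pairs were taken from the position, tilt and background of the scan. Arrays with the same title number did not deviate together (correlations of -0.17 to 0.06), so title numbers were not treated as pairs. The alternatives were normexp background correction, scaling to the 75th percentile, other background filters, the authors' quantile normalized values, each array left out in turn, the replicate number or the scan pair as a block, no trend, an adjusted p under 0.01, array weights and the mean of all probes, and, chosen after seeing the data, a floor for dim values and the median of spots. The scanner files and the normalized table name no genome build.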

Additional observations from a re-analysis of the deposited data

Results flagged for a closer look

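Of 42 groups of arrays examined for the 9 genes and the mean log2 value of the marker lists, 4 held an array that exceeded Dixon's critical value within its group, which chance gives in about 1 of 20 groups. None of the 4 was a T helper gene itself. Relative to the control mean, the mean of group 2 innate lymphoid cell genes was -0.048 on irradiated array 1, compared with 0.82 to 1.12 on the other irradiated arrays. Cardiac muscle genes were at -6.17 on irradiated array 1, compared with -0.49 to 0.38. Liver genes were at -0.39 on irradiated array 1, compared with 0.76 to 1.14. Skeletal muscle genes were at 5.26 on control array 3, compared with -1.93 to -1.64 on the other controls. In measured values, irradiated array 1 was also the lowest array for Il12a, Gata3, Il17a and Il10. Control array 3 was the lowest for Ifng, Il12rb1, Tbx21, Il4 and Il13 and the highest for Il12a and Gata3. Irradiated array 1 was not well above background for Il12a, Il17a and Il10, nor was control array 3 for Il13. Those lowest ranks therefore do not order expression. The part of these differences in tissue content in the T helper values was not tested.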

How the results depend on the processing

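Of 206 values of the 9 genes under alternatives, 201 kept their direction and their side of the threshold, 4 reversed and 1 passed the threshold. Without control array 3, the difference of Ifng was -0.083 and that of Il12a 0.11, and the ranges with each array left out were -0.083 to 0.69 for Ifng and -0.33 to 0.11 for Il12a. The mean of all probes gave -0.012 for Il12rb1, and scaling to the 75th percentile gave -0.13 for Il4. With the scan pair as a random block (consensus correlation 0.605), Il13 passed (1.51), although it was not well above background on any control array. In that fit 1 of the 9 genes was thus called higher, compared with 9.45% of all genes called in either direction. Il13 has no value with the background filter on all 9 arrays, which it did not pass. The adjusted p in limma over all alternatives ranged from 0.0213 to 1.00 for Il13 and from 0.0565 to 1.00 for Il10. Apart from the alternatives that hold fewer arrays or probes, the cause of these shifts was not tested.

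The count of all probes past the threshold, 131 in the comparison without a block, was 197 with the filter on all 9 arrays, 44 with the authors' normalized table, 44 without a trend, 5 at an adjusted p under 0.01, 1105 with the scan pair as a block and 2899 as a random block, and ranged from 5 (without control array 3) to 476 (without irradiated array 1). With the replicate number of the titles as a block it was 1, and this pairing changed no call among the 9 genes. The counts of pathway genes past the threshold, each 0 without a block, were with the scan pair as a block and as a random block 1 and 3 for the Th2 pathway, 2 and 1 for the Th17 pathway, 3 and 2 for the regulatory T cell and interleukin 10 pathway, 4 and 2 for the genes that interferon gamma induces, 1 and 3 for those that interleukins 4 and 13 induce, and 2 and 3 for those that interleukin 17 induces. Over all genes, 3.84% passed with the block and 9.45% with the random block. With each array left out the pathway counts ranged from 0 to 1 for the Th17 pathway (1 without irradiated array 1), from 0 to 2 for the regulatory pathway and for the genes that interleukin 17 induces (2 without irradiated array 1 in both), and from 0 to 1 for those that interleukins 4 and 13 induce (1 without control array 1, and 1 with the mean of all probes). For Il12a, Il13, Il17a and Il10, a signal near background limits what these arrays can show.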
